A study of Homo sapiens with 6 samples.

Results

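The genes described here are 9 marker genes of t(8;21) acute myeloid leukemia, POU4F1, NCAM1, PAX5, TRH, CAV1, ROBO1, PRAME, SIPA1L2 and PALM, measured in Kasumi-1 cells. They were found in the deposited expression table by their Ensembl identifiers, which GENCODE release 29 pairs with these symbols, and all 9 were among its 32364 genes. The rule that picked them was that they are known markers of this leukemia, and it used no measured value, although earlier results of these data were known when the markers were picked. Kasumi-1 is an established human cell line of the M2 subtype of acute myeloid leukemia, in which the translocation t(8;21) joins RUNX1 (AML1) to RUNX1T1 (ETO). The comparison asks whether I13, a histone deacetylase (HDAC) inhibitor, altered the expression of these genes. Of the 6 mRNA sequencing libraries, 3 were from cells that had received I13 at 0.5 µM (I13) and 3 from cells that had received the solvent, dimethyl sulfoxide, at the concentration that the I13 solution contained (control), and both groups were collected after 48 h. All libraries came from 1 cell line, so they say nothing of other t(8;21) cells. The labels do not say whether replicates were separate cultures. The study describes its sequencing figure as representative of independently repeated experiments, but does not say which library came from which experiment. The p-values below measure the spread between these libraries, which may in part be technical.

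In t(8;21) leukemia the DNA-binding part of RUNX1, a regulator of blood cell development, is fused to RUNX1T1, a corepressor that binds complexes containing histone deacetylases. Leukemic blasts with the fusion keep a granulocytic progenitor character and switch on genes that are not typical of that lineage. These include the B-cell regulator PAX5, the adhesion molecule NCAM1 (CD56), the neuronal transcription factor POU4F1 and the hypothalamic prohormone gene TRH, which is why such genes are used to recognise the subtype. Histone deacetylase inhibitors raise histone acetylation and can increase or decrease the transcripts of individual genes.

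The unit is FPKM, in which the fragments on a gene are scaled to its exon length and to the library's mapped fragments, so genes can be compared per length. Depth, as recovered from the values, ran from 16566742 to 17221345 fragments for control and from 15281052 to 16682550 for I13. The line matched its label. MPO, the granule peroxidase of granulocytic progenitors, was between 10200 and 12400 FPKM, KIT, the stem cell factor receptor, between 196 and 236 FPKM, CD34, a progenitor antigen, between 38.3 and 45.9 FPKM, and RUNX1T1, whose reads include those of the fusion transcript, between 12.5 and 14.4 FPKM. RUNX1T1 showed a log2 fold change of -0.03 between I13 and control (SE 0.069), with an unadjusted limma p of 0.688. All 8 myeloid progenitor markers listed reached a mean of 0.1 FPKM, and CD38 was the lowest, between 0.974 and 1.2 FPKM. Among them only CD33 did not overlap, at 10.8 to 11.9 FPKM in control and 12.7 to 13.7 FPKM with I13. The limma p of CD33 was 0.0166 unadjusted and 0.890 after correction over all genes tested. Of 5 fibroblast markers measured, 4 were at 0 in all libraries, and the summed FPKM of fibroblast, T cell, B cell, erythroid and epithelial marker lists overlapped between control and I13. EPCAM, an epithelial adhesion gene, was nevertheless between 20.8 and 26.5 FPKM in all libraries. Of the T cell markers, CD3D was low but did not overlap, at 0.313 to 0.376 FPKM in control and 0.129 to 0.141 FPKM with I13. Its limma p was 0.0205 unadjusted and 0.890 after correction over all genes tested, and CD3E and CD8A overlapped between the groups. Control replicate 3 and I13 replicate 2 stood apart from the other 4 libraries on the first principal component of the 4133 genes whose mean FPKM reached 10 (43.3% of the variance, scores 6.08 and 5.90 against -3.30 to -2.39). Results are therefore also given without this library pair and within it. The pair was picked from these same values, so p-values without it or with a term for it rest on a split seen in the data. On the second principal component (20.5% of the variance) the groups separated, with scores of 2.28 to 3.58 in control and -3.15 to -2.50 with I13.

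Over the 6 libraries the 9 markers ranged from abundant transcripts to genes near the limit of detection. Of the 9 genes, 6 reached a mean FPKM of 0.1, the minimum for a test. Their order was TRH, PALM, ROBO1, POU4F1, SIPA1L2 and PAX5, and each was higher than the next in 6 of 6 libraries. PRAME, NCAM1 and CAV1 lay under the minimum. PAX5 was higher than PRAME and PRAME higher than NCAM1 in 6 of 6 libraries, whereas NCAM1 was above CAV1 in only 2 of 6 libraries, so the last 2 genes cannot be ordered. Among the mean FPKM of the protein-coding genes tested, TRH was at percentile 89.5, PALM at 81.4, ROBO1 at 53.5, POU4F1 at 45.3, SIPA1L2 at 27 and PAX5 at 16.2. Kasumi-1 cells thus held abundant TRH and PALM transcripts, middle levels of ROBO1 and POU4F1, little SIPA1L2 and PAX5, and almost no PRAME, NCAM1 or CAV1 transcript.

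Between I13 and control, 3 of the 6 tested markers differed at an unadjusted p under 0.05 and none after correction. TRH and PALM were lower with I13 and PAX5 was higher. The test was limma on log2(FPKM + 0.1), two-sided and with a variance trend, over the 18726 genes whose mean FPKM reached 0.1. The added 0.1 pulls the fold changes of low genes toward 0. At a Benjamini-Hochberg adjusted p under 0.05 and a log2 fold change beyond ±0.58, limma called 0 of the 18726 genes (0%), and the smallest adjusted p was 0.275. An unadjusted limma p under 0.05 was reached by 963 genes (5.14%), 478 higher and 485 lower, and by 3 of the 6 markers. Together with the fold threshold it was reached by 445 genes (2.38%) and by 1 marker, PAX5. The control and I13 values did not overlap for 1783 genes (9.52%) and for 3 markers, TRH and SIPA1L2 below control and PAX5 above it. With 3 against 3 libraries a two-sided exact permutation test cannot go below p = 0.1, the value of these 3 markers, and it gave p = 0.2 for PALM, 0.4 for ROBO1 and 0.7 for POU4F1. The median log2 fold change was -0.15 over the 6 markers, 5 of which were below 0, and 0.006 over all genes tested.

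Limma's voom, which weights the log counts of recovered fragments by their precision, was run on the 12966 genes whose mean reached 10 fragments. It called 7 genes (0.054%) at a Benjamini-Hochberg adjusted p under 0.05 and no marker, while 691 genes had an unadjusted p under 0.05. With a term that sets the library pair apart, chosen after the data had been seen, voom called 77 genes (0.594%), 29 higher and 48 lower, and 3 markers were among them, TRH, PALM and PAX5. The same term in limma gave adjusted p-values of 0.502 for TRH, 0.487 for PALM and 0.623 for PAX5, so the calls for these 3 genes came only from voom with the term.

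**Figure D1:**
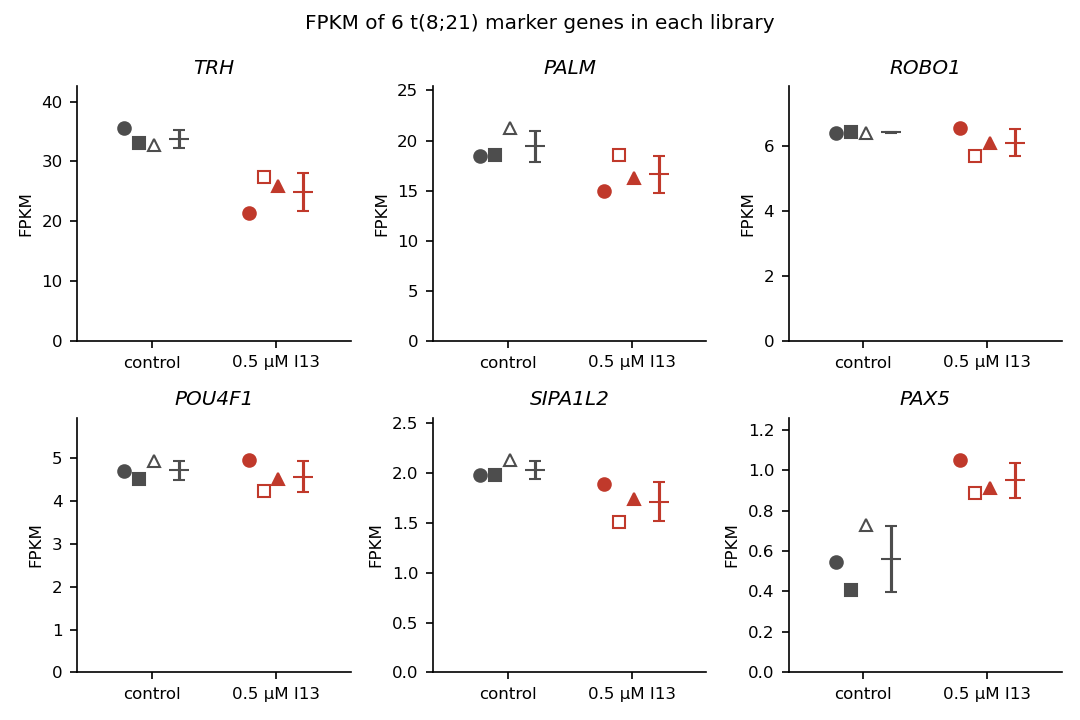
FPKM (y axes, from 0) of the 6 markers that were tested, by group, with 1 symbol per library (circle, square and triangle for replicates 1, 2 and 3, open symbols for control replicate 3 and I13 replicate 2) and mean ± SD beside them. All I13 points of TRH and SIPA1L2 lie below and all those of PAX5 lie above the control points, whereas PALM, ROBO1 and POU4F1 overlap.

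TRH encodes the precursor of thyrotropin-releasing hormone, a tripeptide of the hypothalamus, and was the most abundant of the markers. The gene (ENSG00000170893) lies on the plus strand at chr3:129974305-129977938 (GRCh38, GENCODE 29). TRH was 35.5, 33.0 and 32.7 FPKM in control replicates 1, 2 and 3 and 21.3, 27.4 and 25.9 FPKM in I13 replicates 1, 2 and 3. Every I13 library was below every control library, and I13 replicate 1 was the lowest. The values rest on 1071 to 1209 fragments per control library and 670 to 904 per I13 library. The mean was 33.7 ± 1.55 FPKM in control and 24.9 ± 3.19 FPKM with I13 (SD, n = 3 each), a difference of -26.3% of the control mean in FPKM. This was a log2 fold change of -0.45 (SE 0.096, 95% interval -0.67 to -0.22), a fold of 0.734 (0.627 to 0.860), with a limma p of 0.00233 unadjusted and 0.575 after the Benjamini-Hochberg adjustment. By voom the adjusted p was 0.0584, and with the term for the library pair it was 0.00223 at a log2 fold change of -0.44. Leaving out control replicate 3 and I13 replicate 2 gave a log2 fold change of -0.54, with an unadjusted limma p of 0.00657, and between these 2 libraries it was -0.25. TRH was lower with I13 in both sets of libraries. In these bulk samples, fewer cells with TRH and less TRH RNA per cell cannot be told apart.

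A stretch before the start of TRH that RefSeq lists (GRCh38.p14) is shown because TRH is the marker with the smallest p. It comes from the plus strand at chr3:129974649-129974678, and capitals mark TGACCTCA, a sequence related to the cyclic AMP response element, whose first base lies 60 bases before that start (position -60). The RefSeq start is downstream of the start of the gene in GENCODE 29, so the stretch lies inside the gene as GENCODE gives it.
TRH: cccctccccgcTGACCTCActcgagccgcc
Searched on both strands, TGACCTCA was present in 1.81% of 35116 windows of 250 bases before RefSeq transcript starts and in none of the other 11 windows of 6 further markers. The TRH window was also GC-rich, at 74.8% against a median of 58% over all windows.

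The genes whose pattern over the 6 libraries was most like that of TRH were IFIT3, CSF1R and HSPD1P1. Likeness was the root mean square difference of centred log2(FPKM + 0.1) over 6 libraries, among 11517 genes whose mean FPKM reached 1, and it was 0.062 for IFIT3, 0.070 for CSF1R and 0.071 for HSPD1P1. IFIT3, an interferon-induced gene, was 2.00, 1.7 and 1.62 FPKM in control and 1.17, 1.45 and 1.34 FPKM with I13. HSPD1P1 is a processed pseudogene of the chaperonin gene HSPD1, so its reads may come from the parent gene. The 3 genes were selected for likeness among many, and each was lowest in I13 replicate 1, as TRH was.

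Around TRH, the enzymes that cut and amidate prohormones were partly present, while the receptor was nearly undetected. Of 8 genes measured for TRH processing and reception, 4 were tested and none reached an unadjusted limma p under 0.05. Their median log2 fold change was 0.09. FURIN, a prohormone convertase of the secretory pathway, was 44.9 ± 4.09 FPKM in control and 40.8 ± 2.51 FPKM with I13 (SD, n = 3 each). CPD, a carboxypeptidase, was 25.6 ± 1.60 and 25.6 ± 3.13 FPKM. PAM, which forms the amide end of thyrotropin-releasing hormone, was 6.41 ± 0.466 and 7.44 ± 0.759 FPKM, a log2 fold change of 0.21 with an unadjusted limma p of 0.0624. By voom the p of PAM was 0.0211 unadjusted and 0.772 adjusted, and with the term for the library pair 0.00237 and 0.143. For FURIN, which was lower with I13, the voom p was 0.0752 unadjusted, and with the term 0.00505 unadjusted and 0.198 adjusted. TRHR, the receptor, did not exceed 0.039 FPKM in any library. Of the other genes in this list, PCSK1 held 1 fragment in 1 library and QPCT was at 0 in all 6 libraries.

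PALM encodes paralemmin, a lipid-anchored protein of the plasma membrane linked to cell shape. The gene (ENSG00000099864) lies on the plus strand at chr19:708939-748329 (GRCh38, GENCODE 29). PALM was 18.5, 18.6 and 21.2 FPKM in the control replicates and 15, 18.6 and 16.3 FPKM in the I13 replicates. The groups overlapped, because I13 replicate 2 lay between control replicates 1 and 2, and the highest value of each group was that of its library from the pair that stood apart. The values rest on 1169 to 1724 fragments per library. The mean was 19.5 ± 1.51 FPKM in control and 16.6 ± 1.83 FPKM with I13 (SD, n = 3 each). This was a log2 fold change of -0.23 (SE 0.094, 95% interval -0.45 to -0.009), with a limma p of 0.0437 unadjusted and 0.947 after the Benjamini-Hochberg adjustment. It was -0.25 when control replicate 3 and I13 replicate 2 were left out, with an unadjusted limma p of 0.0105, and -0.19 between them. By voom the adjusted p was 0.688, and with the term for the library pair it was 0.0339 at a log2 fold change of -0.23. Leaving out 1 library at a time gave log2 fold changes from -0.31 to -0.16 and unadjusted limma p-values from 0.0089 to 0.143, and the p stayed under 0.05 only when I13 replicate 2 was left out. Of the other paralemmin genes, PALM3 held between 0 and 3 fragments per library, AKAP2, which is joined to a paralemmin gene in some transcripts, between 0 and 5, and PALMD none.

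PAX5, the transcription factor that commits cells to the B lineage, was the only tested marker that was higher with I13. The gene (ENSG00000196092) lies on the minus strand at chr9:36833275-37034185 (GRCh38, GENCODE 29). PAX5 was 0.548, 0.406 and 0.731 FPKM in the control replicates and 1.05, 0.886 and 0.912 FPKM in the I13 replicates. All I13 values were above all control values, but the control libraries spread widely. The values rest on 88, 65 and 113 fragments in control and 156, 138 and 130 fragments with I13, so PAX5 was a low transcript in both groups. The mean was 0.561 ± 0.163 FPKM in control and 0.949 ± 0.0880 FPKM with I13 (SD, n = 3 each), a mean higher by 69.1% of the control mean in FPKM. The coefficient of variation of the control libraries, 29%, exceeded the 10.8% that counting alone gives, while that of the I13 libraries, 9.27%, was near the 8.43% from counting. This was a log2 fold change of 0.69 (SE 0.233, 95% interval 0.14 to 1.24), a fold of 1.62 (1.1 to 2.36), with a limma p of 0.0204 unadjusted and 0.890 after the Benjamini-Hochberg adjustment.

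Outside the library pair the difference in PAX5 was numerically larger than within it, which has no error and was not tested. It was 0.91 on the log2 scale when control replicate 3 and I13 replicate 2 were left out, with an unadjusted limma p of 0.0202, and 0.25 between them. By voom it was 0.80 with a Benjamini-Hochberg adjusted p of 0.114, and with the term for the library pair it was 0.76 (95% interval 0.40 to 1.12) with an adjusted p of 0.0390. The limma p rose to 0.0584 unadjusted without control replicate 2 (log2 fold change 0.51) and to 0.0676 without I13 replicate 1 (0.62). A pseudocount of 1 in place of 0.1 reduced the log2 fold change to 0.32. Opposite-strand genes that overlap PAX5, AL450267.1 and AL161781.2, held 0 or 1 fragment per library.

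The sequence before the listed start of PAX5 is shown because PAX5 was the only marker past the unadjusted p and the fold threshold, and that of POU4F1 because it is a transcription factor gene whose level hardly moved. Both are 250 bases from RefSeq (GRCh38.p14) on the minus strand, at chr9:37034269-37034518 for PAX5 and chr13:78603553-78603802 for POU4F1. Capitals mark TATAA, the core sequence of the TATA box, and GGGCGG, the core of SP1 sites. In both windows, as printed, TATAA lies toward the end that is farthest from the listed start. Whether it acts as a TATA box was not tested. The last bases of the POU4F1 window lie inside the gene as GENCODE gives it.
PAX5: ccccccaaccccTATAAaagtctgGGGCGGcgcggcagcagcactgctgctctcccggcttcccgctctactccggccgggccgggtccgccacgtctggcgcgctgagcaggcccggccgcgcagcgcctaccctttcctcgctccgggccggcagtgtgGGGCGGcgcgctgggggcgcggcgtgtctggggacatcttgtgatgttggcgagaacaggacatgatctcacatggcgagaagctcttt
POU4F1: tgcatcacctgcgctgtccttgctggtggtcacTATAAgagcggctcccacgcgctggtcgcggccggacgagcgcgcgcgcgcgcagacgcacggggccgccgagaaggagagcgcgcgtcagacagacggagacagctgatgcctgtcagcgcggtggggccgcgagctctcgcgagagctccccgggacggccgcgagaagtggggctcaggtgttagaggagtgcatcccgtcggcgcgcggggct
Searched on both strands, TATAA was present in 18.9% and GGGCGG in 42.6% of the 35116 windows. TGTGGT, the core bound by RUNX proteins, was present in 11% of the windows but not in these windows of PAX5, POU4F1 and TRH. The PAX5 and POU4F1 windows were 69.6% and 71.2% GC.

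No tested B-lineage gene around PAX5 reached an unadjusted limma p under 0.05. Of 11 measured, 7 were tested, 2 above and 5 below 0 on the log2 fold change, with a median of -0.12. CD79A, a subunit of the B-cell receptor and a PAX5 target, was 1.31, 1.24 and 1.61 FPKM in control and 1.38, 2.55 and 1.87 FPKM with I13, a log2 fold change of 0.42 (SE 0.227) with an unadjusted limma p of 0.107. The highest value of CD79A fell in I13 replicate 2, whereas that of PAX5 fell in I13 replicate 1. The regulators TCF3 (52.9 ± 3.61 and 52.6 ± 2.42 FPKM) and IKZF1 (16.3 ± 0.752 and 16.6 ± 0.156 FPKM) differed by less than the SD of their control libraries (n = 3 each). The difference of IKZF1 exceeded the SD of its I13 libraries. VPREB1, part of the pre-B-cell receptor, was at 0 in all 6 libraries. CD79B, the partner of CD79A, was between 2.61 and 3.75 FPKM in control and between 2.87 and 3.31 FPKM with I13. CD22, an inhibitory B-cell receptor, was between 0.350 and 0.441 FPKM in control and between 0.276 and 0.331 FPKM with I13. The part of B-cell transcripts in the PAX5 result was not tested.

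**Figure D2:**
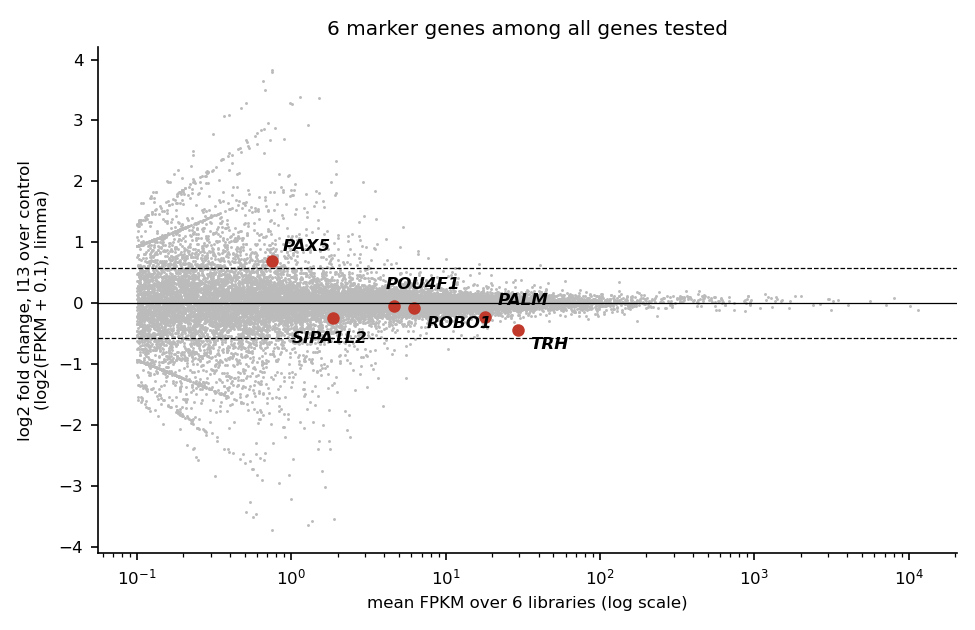
Log2 fold change of I13 over control from limma (y axis) against the mean FPKM over the 6 libraries (x axis, log scale) for the 18726 genes tested (grey) and the 6 markers (red), with dashed lines at the fold threshold of ±0.58. PAX5 lies just past the threshold where low genes scatter widely, whereas TRH lies inside the threshold at a higher level, where genes scatter less.

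POU4F1, a POU-domain transcription factor of sensory neurons, showed no detectable difference. The gene (ENSG00000152192) lies on the minus strand at chr13:78598362-78603560 (GRCh38, GENCODE 29). POU4F1 was 4.70, 4.51 and 4.94 FPKM in the control replicates and 4.96, 4.23 and 4.52 FPKM in the I13 replicates, and the groups overlapped fully. The mean was 4.72 ± 0.214 FPKM in control and 4.57 ± 0.366 FPKM with I13 (SD, n = 3 each). The log2 fold change was -0.05 (SE 0.087, 95% interval -0.25 to 0.16), with a limma p of 0.61 unadjusted. The interval corresponds to a fold between 0.840 and 1.12, so larger differences lay outside it. The sign turned to 0.006 without I13 replicate 2 and to 0.04 without both libraries of the pair. With 314 to 372 fragments per library, the coefficient of variation was 4.54% in control, against 5.24% from counting alone, and 8.01% with I13, against 5.50%. Opposite-strand genes that overlap POU4F1, RNF219-AS1 and AL445209.1, held at most 4 fragments per library.

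The rest of the POU family was sparse. Of 9 other POU genes measured, 4 were tested, 2 above and 2 below 0, and none reached an unadjusted limma p under 0.05. POU2F1, the widely expressed octamer factor, was 4.96 ± 0.323 FPKM in control and 4.75 ± 0.855 FPKM with I13, close to the level of POU4F1. POU6F1 was 0.442 ± 0.0585 and 0.506 ± 0.0542 FPKM (SD, n = 3 each).

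ROBO1, a receptor for SLIT guidance ligands, was at nearly the same level in every control library. The gene (ENSG00000169855) lies on the minus strand at chr3:78597240-79767815 (GRCh38, GENCODE 29). ROBO1 was 6.41, 6.45 and 6.42 FPKM in the control replicates and 6.55, 5.70 and 6.10 FPKM in the I13 replicates. The I13 values lay on both sides of the control values. The coefficient of variation was 0.317% in control, below the 2.90% of counting alone, and 6.95% with I13, above the 3.07% of counting alone. The log2 fold change was -0.07 (SE 0.073, 95% interval -0.25 to 0.10), with a limma p of 0.355 unadjusted. It was -0.02 without the library pair and -0.17 within it.

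ROBO1 was the only receptor of its family past the minimum level for a test. ROBO4 was at 0 in all libraries, ROBO2 held 1 fragment in 1 library and ROBO3 between 0 and 5 fragments per library. Of 17 measured genes of SLIT-ROBO signaling, 11 were tested, 3 above and 8 below 0 (median log2 fold change -0.05), and none reached an unadjusted limma p under 0.05. The ligand genes SLIT1 and SLIT2 lay between 0.0926 and 0.339 FPKM, and SLIT3 held 1 fragment in 1 library. The kinase ABL1 (28.7 ± 1.03 and 28.2 ± 1.15 FPKM) and the GTPase CDC42 (78.8 ± 3.20 and 77.3 ± 2.64 FPKM), which act inside the cell, differed by less than their spread (SD, n = 3 each).

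SIPA1L2 belongs to the proteins that switch off RAP GTPases. The gene (ENSG00000116991) lies on the minus strand at chr1:232397965-232561558 (GRCh38, GENCODE 29). SIPA1L2 was 1.98, 1.98 and 2.13 FPKM in the control replicates and 1.89, 1.51 and 1.74 FPKM in the I13 replicates. Every I13 library was below every control library, although I13 replicate 1 was close to the control values. The mean was 2.03 ± 0.0865 FPKM in control and 1.71 ± 0.189 FPKM with I13 (SD, n = 3 each), resting on between 193 and 270 fragments. As a log2 fold change this was -0.24 (SE 0.124, 95% interval -0.53 to 0.05), with a limma p of 0.095 unadjusted and 0.962 after the Benjamini-Hochberg adjustment. Unlike for PAX5 and TRH, it was numerically larger within the library pair (-0.47) than without it (-0.12). By voom the p was 0.0456 unadjusted and 0.924 adjusted, and with the term for the library pair 0.0319 and 0.412.

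Genes of the RAP pathway lay close to 0. Of 14 measured, 12 were tested, 7 above and 5 below 0, with log2 fold changes from -0.21 to 0.08 and a median of 0.01, and none reached an unadjusted limma p under 0.05. The relatives SIPA1 and SIPA1L3, at 16.6 ± 1.77 and 6.36 ± 0.652 FPKM in control, were 15.7 ± 1.06 and 6.09 ± 0.345 FPKM with I13. SIPA1L1 was 0.275 ± 0.0306 and 0.255 ± 0.0414 FPKM, so SIPA1L2 was neither the highest nor the lowest of its family. RAPGEF1, which activates RAP proteins, was 16.3 ± 0.788 and 16.5 ± 1.49 FPKM (SD, n = 3 each).

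**Figure D3:**
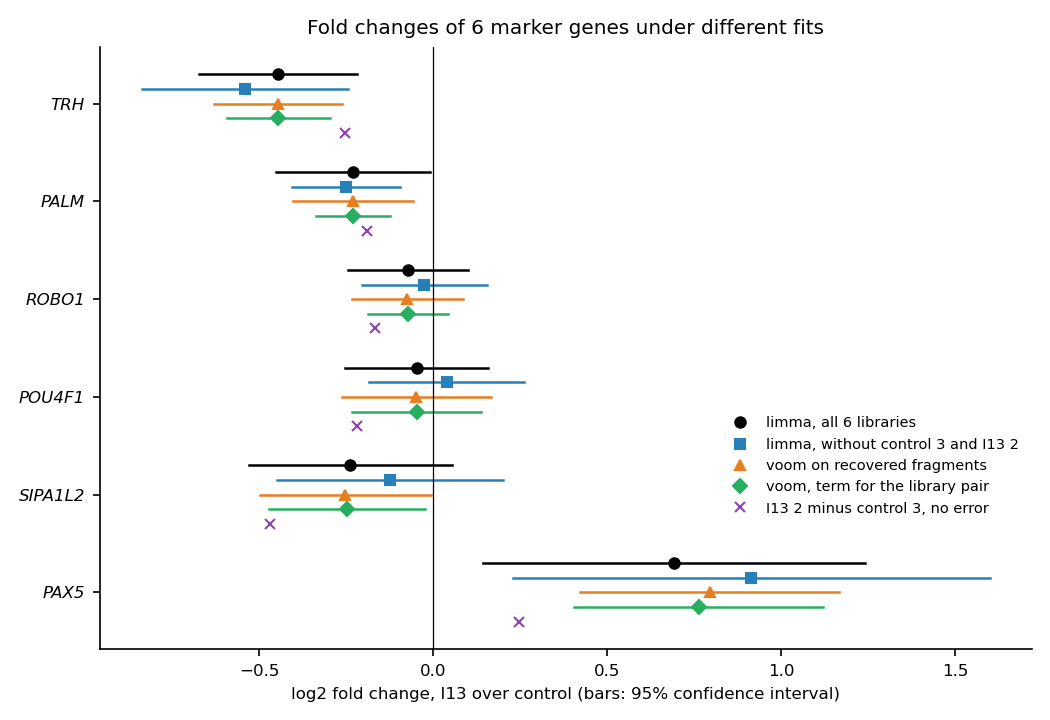
Log2 fold changes of I13 over control for the 6 tested markers (x axis) with 95% confidence intervals (bars) from limma with all 6 libraries, limma without control replicate 3 and I13 replicate 2, voom, and voom fitted with that library pair as a term, and the difference between these 2 libraries with no error (cross). TRH, PALM, ROBO1 and SIPA1L2 lie below 0 and PAX5 above 0 for each of the 5 estimates, and POU4F1 lies on both sides of 0.

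The remaining 3 markers were at the limit of detection. PRAME encodes a cancer-testis antigen that serves as the substrate receptor of a cullin-2 ubiquitin ligase and represses retinoic acid receptor signaling. The gene (ENSG00000185686) lies on the minus strand at chr22:22547701-22559361 (GRCh38, GENCODE 29). It held 2, 8 and 3 fragments in the control replicates and 8, 1 and 2 fragments in the I13 replicates, which is between 0.0159 and 0.133 FPKM. Single libraries of both groups reached 8 fragments, and the groups overlapped fully. Scaled to depth, the 13 fragments in control and 11 with I13 gave a ratio of 0.900 (95% interval 0.365 to 2.18, counting error only). Without 1 library at a time the ratio ran from 0.368 to 1.55, so a change in either direction was not detectable at this depth.

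EZH2 and the ubiquitin ligase partners of PRAME were well expressed. Of 11 measured partner and retinoic acid receptor genes, 8 were tested, 7 above and 1 below 0 (median log2 fold change 0.08), and none reached an unadjusted limma p under 0.05. RARB, RARG and CYP26A1, which were not tested, did not exceed 0.106 FPKM in any library. ELOB, a subunit of the ubiquitin ligase, was 38.6 ± 2.31 FPKM in control and 43.3 ± 3.85 FPKM with I13, with an unadjusted limma p of 0.0725. EZH2, a histone methyltransferase that PRAME is known to work with, was 33.5 ± 2.34 and 35.3 ± 3.06 FPKM, and the receptor gene RARA was 3.09 ± 0.274 and 3.24 ± 0.445 FPKM (SD, n = 3 each). The other 11 cancer-testis genes listed were not analysed here.

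NCAM1 encodes the neural cell adhesion molecule CD56, a surface antigen often found on t(8;21) blasts. The gene (ENSG00000149294) lies on the plus strand at chr11:112961247-113278436 (GRCh38, GENCODE 29). It held 0, 1 and 0 fragments in the control replicates and 2, 0 and 1 fragments in the I13 replicates. The sums of 1 and 3 fragments over the groups do not exceed the limit of 3 fragments that a count of 0 allows, which is 0.00462 FPKM over the control group and 0.00492 FPKM over the I13 group, and no fold is given. NCAM1 thus held too few fragments in either group for a comparison. The limit applies to a count of 0, so it is not an upper bound on the level of NCAM1, which held fragments in both groups.

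Most measured genes for molecules that NCAM1 works with in other cells were present. Of 10 genes listed for its signaling partners and its polysialic acid, 7 were measured and 6 tested, with a median log2 fold change of -0.04. NCAM2, which was not tested, did not exceed 0.0576 FPKM in any library. SPTBN1, a spectrin that anchors NCAM1 to the membrane skeleton, was 18.5, 19.1 and 19.2 FPKM in control and 16.8, 16.8 and 17.5 FPKM with I13, without overlap. Its log2 fold change was -0.15 (SE 0.048), with a limma p of 0.0169 unadjusted and 0.890 after the Benjamini-Hochberg adjustment. PTPRA, a receptor phosphatase, was 27.2 ± 0.121 and 27.5 ± 0.904 FPKM, and PRNP, the prion protein gene, was 18.7 ± 1.18 and 19.8 ± 2.14 FPKM (SD, n = 3 each). ST8SIA4, which adds polysialic acid to NCAM1, was 4.8 ± 0.329 and 4.69 ± 0.539 FPKM.

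CAV1 encodes caveolin-1, the main coat protein of caveolae. The gene (ENSG00000105974) lies on the plus strand at chr7:116524785-116561184 (GRCh38, GENCODE 29). It held 0 fragments in all 3 control replicates and 0, 0 and 1 fragment in the I13 replicates, which allows up to 0.0144 FPKM over the control group. Of its relatives, CAV2 held 1 fragment in 1 library and CAV3 between 0 and 3 fragments per library. Of 8 caveola genes measured, CAV2 and CAV3 included, 4 were tested, 2 above and 2 below 0, and none reached an unadjusted limma p under 0.05. CAVIN2 did not exceed 0.217 FPKM and EHD2 held 0 or 1 fragment per library. The highest were PACSIN2 at 17.3 ± 1.16 and 17.7 ± 0.270 FPKM and PACSIN3 at 12.1 ± 0.922 and 12 ± 0.879 FPKM in control and I13 (SD, n = 3 each), both of which bend membranes. CAVIN1, which caveolae need to form, was 8.71, 5.50 and 5.39 FPKM in control and 9.71, 8.78 and 5.40 FPKM with I13, overlapping between the groups.

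CAV1 was the only marker with TGTGGT, the core bound by RUNX proteins, in a RefSeq window of 250 bases before a listed start, in 1 of its 3 windows, and for this reason the site is shown. It lies on the plus strand at chr7:116526296-116526325 (GRCh38.p14), and capitals mark the motif, whose first base is at position -55 from that start, which lies inside the gene as GENCODE 29 gives it.
CAV1: gtacagaggggTGTGGTgtcctctgcgaga
Windows were given for 7 of the 9 markers, 12 windows in all, and NCAM1 and PALM had none.

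Among genes linked to the markers or to the fusion, the myeloid growth factor receptors CSF3R and CSF1R were lower with I13. CSF3R, the receptor of granulocyte colony-stimulating factor, which is sometimes mutated in t(8;21) leukemia, was 91.8, 91.0 and 91.0 FPKM in control and 71.4, 78.4 and 78.2 FPKM with I13. This was a log2 fold change of -0.27 (SE 0.050), with a limma p of 0.00105 unadjusted and 0.517 after the Benjamini-Hochberg adjustment. CSF1R, the receptor of macrophage colony-stimulating factor and a RUNX1 target, was 6.87, 6.13 and 6.97 FPKM in control and 4.27, 5.07 and 5.17 FPKM with I13. That was a log2 fold change of -0.46 (SE 0.099), with a limma p of 0.00244 unadjusted and 0.583 adjusted. Neither gene overlapped between the groups. By voom the adjusted p was 0.0897 for CSF3R and 0.0788 for CSF1R, and with the term for the library pair 0.000772 and 0.00456.

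Together the 12 lists of linked genes held 133 genes, of which 106 were measured and 73 tested, and the other 27 were not analysed here. At an unadjusted limma p under 0.05, 0 of the 73 were higher and 3 were lower (4.11%, against 5.14% of all genes tested), namely CSF3R, CSF1R and SPTBN1. None of the 73 was also past the fold threshold. The groups did not overlap for 7 of the 73 (9.59%, against 9.52% of all genes tested), and all 7 were lower with I13. With both directions pooled the shares were close to those of all genes. Counted in the lower direction alone, 4.64% of all genes tested did not overlap and 2.59% had an unadjusted p under 0.05. The median log2 fold change was -0.03. Of 10 tested genes in a list of others linked to t(8;21) leukemia, 3 were above and 7 below 0 with a median of -0.07. MPO was 11943 ± 439 FPKM in control and 11027 ± 771 FPKM with I13, and KIT was 225 ± 12.2 and 216 ± 17.1 FPKM (SD, n = 3 each).

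Genes described as lowered by RUNX1-RUNX1T1 were not higher with I13 as a group. Of 9 tested, 3 were above and 6 below 0, with a median log2 fold change of -0.06. SPI1, the myeloid transcription factor PU.1, was 114 ± 7.78 FPKM in control and 105 ± 6.02 FPKM with I13, with an unadjusted limma p of 0.145, and CEBPE, a factor of late granulocytic maturation, was 34.8 ± 1.33 and 33.4 ± 2.95 FPKM (SD, n = 3 each). CSF1R was the only gene of this list with an unadjusted p under 0.05, and it was lower.

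**Figure D4:**
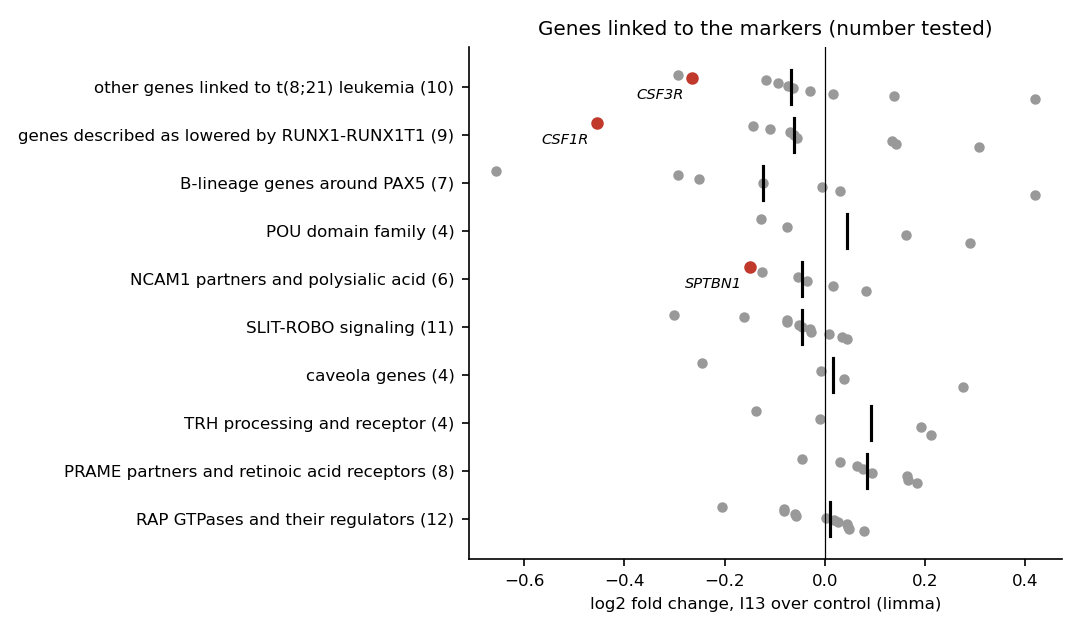
Log2 fold changes of I13 over control from limma (x axis) of the tested genes in 10 lists linked to the markers, with 1 point per gene, the median of each list as a bar, the number tested in brackets and genes with an unadjusted p under 0.05 in red. The medians lie between -0.12 and 0.09, and the 3 red genes, CSF3R, CSF1R and SPTBN1, lie below 0.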

How the data were processed

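Polyadenylated RNA of 6 Kasumi-1 samples was sequenced from libraries made with a stranded mRNA kit. The authors deposited FPKM values, fragments scaled to exon length and to mapped fragments, in 1 table of 32364 genes. The submitters' processing notes name Trimmomatic, HISAT2, Cufflinks, HTSeq and the hg38 build. The roles of these tools, the annotation and the strand setting of the counting are not given in the sources, so reads of overlapping opposite-strand genes cannot be told apart. Fragments were recovered from the FPKM with exon lengths from GENCODE 29: 25773 of 27002 genes (95.4%) gave whole numbers in all 6 libraries within 0.01. Intervals and limits from fragments cover counting error only, at 95% confidence.

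The deposited values were compared as log2(FPKM + 0.1) in R 4.3.3 with limma 3.58.1 (2 groups, variance trend, two-sided, Benjamini-Hochberg over all genes tested), and single values by exact permutation in Python 3.11.15 with scipy 1.17.1. Because the unit is FPKM, a fit of recovered fragments by voom was an alternative, for genes whose 6 values were whole. Its form with a term for the library pair, and the difference within the pair, were chosen after the data were seen. The pair itself was picked from the first principal component of these values. The limma fits without the pair or with a term for it therefore also rest on that split. The other alternatives changed the pseudocount (1 or 0.01), the filter (none, or a mean FPKM of 1), the scaling (medians or quantiles), the libraries (without each, or without the pair), the model (a term for the pair, a block for the replicate number, no variance trend, robust variances) or the fold threshold (log2 of 1). The scripts were tested on simulated data. The members and lists were chosen with earlier results of these data known. Genes named were the 9 markers, MPO, KIT, CD34 and RUNX1T1, each list's genes with an unadjusted p under 0.05, its 2 highest genes, and the 3 genes most like TRH. Some single values are not reported here. Other genes named were chosen for their role or after their values were seen.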

Additional observations from a re-analysis of the deposited data

How the results depend on the processing

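PAX5 rested on 65 to 156 fragments per library. PRAME, NCAM1 and CAV1, with at most 8, were left out by the minimum FPKM, and without that filter their unadjusted limma p was 0.824, 0.720 and 0.612. TRH and PAX5 kept their direction under all alternatives run, and TRH kept a limma or voom p under 0.05 in each that gave one. Without 1 library at a time, the log2 fold change was -0.52 to -0.34 for TRH, 0.51 to 0.87 for PAX5 and -0.31 to -0.16 for SIPA1L2. POU4F1, at -0.05, ranged from -0.11 to 0.0062 without 1 library, above 0 without I13 replicate 2, and was 0.039 without both libraries of the pair. Genes at an adjusted p and the fold threshold, 0 by limma, numbered 9 without a variance trend, 6 by voom and 14 by voom with the term for the library pair, and 0 to 2 without 1 library, with 2 when I13 replicate 1 was left out. Of these 14, 1 was a marker, PAX5. Genes at the unadjusted p and fold, 445, numbered 134 with a pseudocount of 1, 119 with a minimum mean FPKM of 1, 192 by voom with or without the term, and 447 to 516 without 1 library. Markers at the unadjusted p and fold, 1, numbered 0 with a pseudocount of 1, 0 with a minimum mean FPKM of 1, which removes PAX5, 0 at a log2 fold change of 1, and 0 to 1 without 1 library. Genes of the linked lists, 0, numbered 0 to 1, and markers without overlap, 3, numbered 3 to 4. The sources do not say that replicate numbers pair the samples, and the deviations of same-numbered libraries correlated at 0.32, -0.379 and -0.297. With the replicate number as a block (replicate block), 0 genes passed the adjusted p and 506 the unadjusted p and fold, and the unadjusted limma p was 0.0084 for TRH, 0.0313 for PAX5 and 0.0547 for PALM. The p of PALM was also over 0.05 with median scaling (0.0671) and without a variance trend (0.0958). The causes were not tested.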
